A study of Oryzias latipes with 18 samples.

Results

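The zfhx4 locus of medaka (Oryzias latipes) was described by the accessible chromatin elements that lie in and around the gene. The gene zfhx4, entry IGDB18673 in the study's list of TF genes, occupies 13818641 to 13892178 of chromosome 20 (forward strand, 73.5 kb). An element was a member if its midpoint fell between 13718641 and 13992178, that is, in the gene or in the 100 kb on either side. This rule gave 117 elements of the 149539 in the list. The locus was chosen by the number of elements around the gene in this same list, so that number and the density are given as a description and were not tested.

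The list was made from 18 ATAC-seq libraries of whole embryos, a pair for each of stages 11, 15, 19, 25, 29, 32, 36, 38 and 40. The embryos were offspring of a cross of d-rR-Tg(olvas-GFP) with Qurt, kept in fresh water at 28 °C, and were freed of chorion and yolk before the Omni-ATAC reaction. Since whole embryos were used, the tissue in which an element was open is not known. All libraries were pooled in the list, so there is no value per stage or per replicate, no replicate error and no depth per library, and every comparison given here is a description of this list.

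Zfhx4 encodes a very large transcription factor that carries many C2H2 zinc fingers together with several homeodomains. It belongs to the ATBF1 family, whose other vertebrate members are Zfhx2 and Zfhx3, and in mouse it is known for its expression in the developing nervous system, muscle and skeleton. ATAC-seq marks open chromatin by the insertion of a transposase, and both promoters and distal regulatory elements such as enhancers are found in this way. Each element has a peak score, taken as the −log10 q-value given by the peak caller, which had to exceed 7, and the number of peaks of single stages that were merged into it. A stage can contribute more than 1 peak, so that an element of 9 peaks need not have been open at all 9 stages.

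The 117 elements gave a density of 428 per Mb, or 1 element per 2.34 kb. This was 2.08 times the 206 per Mb of chromosome 20 and 2.18 times the 197 per Mb of all 24 chromosomes. The elements covered 36117 bp, which was 13.2% of the window, against 5.92% of all chromosomes. They were thus numerous, and were not made up of long stretches, since their median width was 282 bp (103 to 790 bp), against 255 bp over all elements.

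The elements were densest inside the gene. The gene held 46 elements, which is 626 per Mb and 3.18 times the density of all chromosomes. The 100 kb upstream held 37 elements (370 per Mb), and the 100 kb downstream held 34 (340 per Mb). The density in the gene was 1.69 times that of the upstream flank and 1.84 times that of the downstream flank, and both flanks were denser than the chromosomes as a whole. RefSeq ends zfhx4 at 13900654, 8.48 kb further downstream, and with its limits the gene held 48 elements (584 per Mb).

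**Figure D1:**
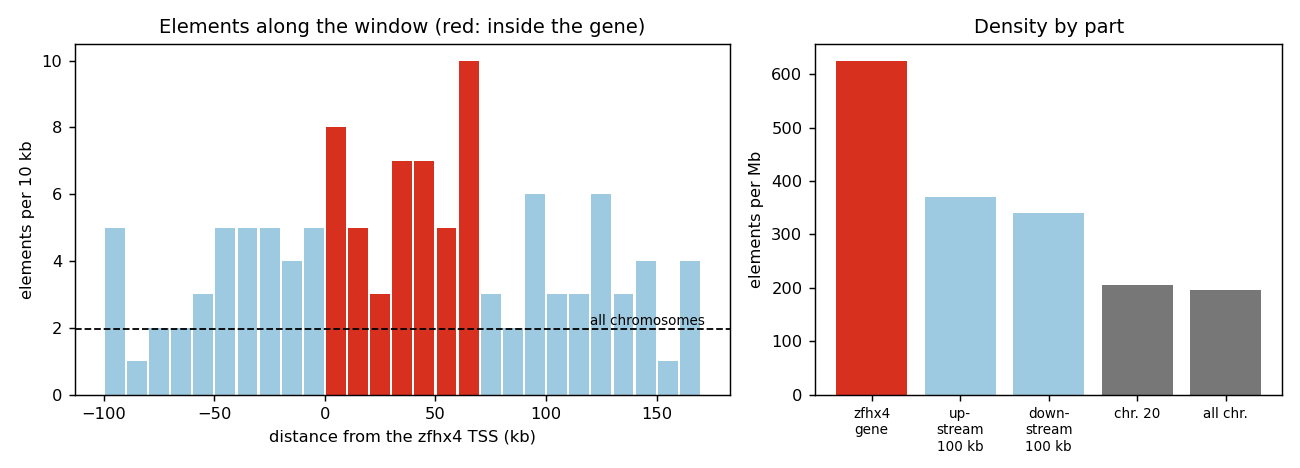
Number of elements in each 10 kb from the zfhx4 TSS (left, counts, dashed line at the density of all chromosomes) and elements per Mb in the gene, its flanks, chromosome 20 and all chromosomes (right). Red marks the gene on the right and the bins up to 70 kb downstream of the TSS on the left. The gene itself runs to 73.5 kb, within the next bin. It held 626 elements per Mb and its most crowded bin 10 elements, against 197 per Mb on all chromosomes.

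The elements differed widely in strength and in the number of merged peaks. Their scores ran from 7.16 to 298 with a median of 29.5 (quartiles 18.5 and 63.1), close to the median of 30.8 over all elements (16.5 and 67.0). A score of at least 100 was found in 15 elements (12.8%), against 15.8% of all elements. At a score of at least 50 the shares were 32.5% in the window and 33.4% in the list, and at 20 they were 69.2% and 67.2%. The scores of the locus were thus close to those of the list, while the number of elements was high.

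The number of merged peaks set the window further apart. Of its elements, 32 came from a single peak (27.4%), against 27.7% of all elements. A further 51 came from 2 to 4 peaks (43.6%) and 30 from 5 to 8 (25.6%). Just 4 elements (3.42%) came from 9 peaks and none from more, against 12.5% of all elements with 9 or more. The share of single-peak elements was thus close to that of the list, and the share from 9 or more peaks was below it. The size of this difference depended on how elements were delimited, and gaps under 500 bp made up 25.9% of gaps in the window, against 19.2% on all chromosomes. With elements closer than 500 bp joined and their peaks summed, 13 of 87 elements (14.9%) had 9 or more peaks, against 19.0% of all joined elements.

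**Figure D2:**
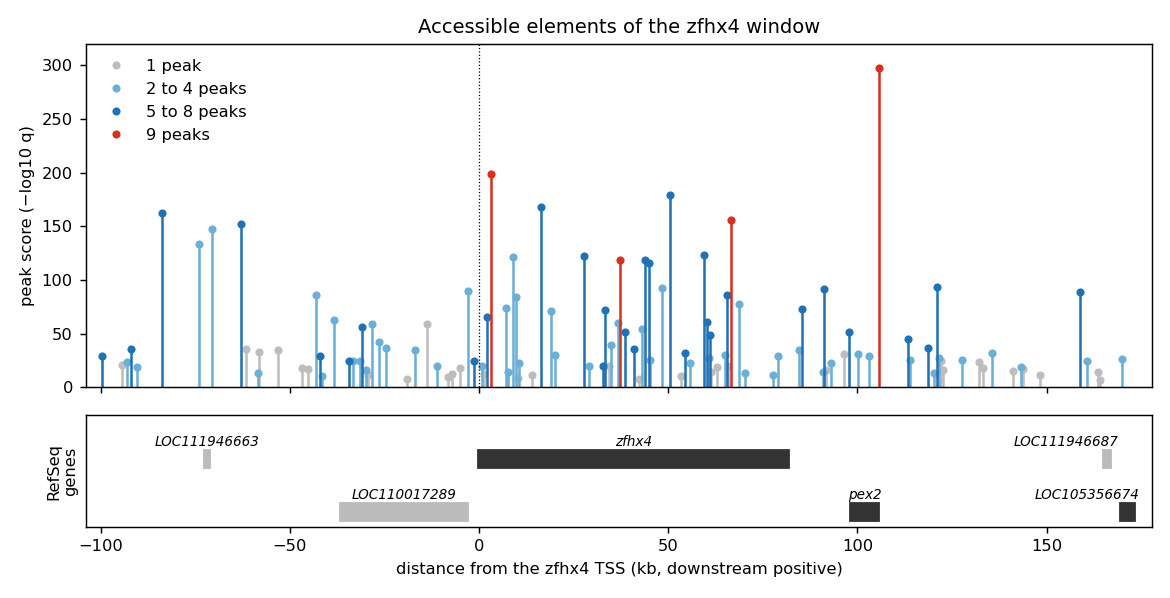
Peak score (−log10 q) of each of the 117 elements by distance from the zfhx4 TSS in kb (top, colour by number of merged peaks) and the RefSeq genes of the window (bottom, dark: protein-coding, grey: lncRNA). Elements with scores above 100 stood in the gene, in a group 63.0 to 83.8 kb upstream and at pex2, where the element of 298 stood 105.8 kb downstream.

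No element covered the TSS of zfhx4. The nearest, chr20:13819307-13819433, was centred 0.729 kb downstream of the TSS, had a score of 19.8 and came from 2 peaks. The next on the upstream side, chr20:13817101-13817438, lay at 1.37 kb with a score of 24.5 and 5 peaks. The RefSeq start of the gene, 146 bp further upstream, was not covered either, and its nearest element was the same one, at 0.875 kb.

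Stronger elements followed shortly inside the gene. The element chr20:13820401-13820879, 2.00 kb downstream of the TSS, had a score of 65.9 and came from 8 peaks. The element chr20:13821683-13821852, 3.13 kb downstream, had a score of 199 and 9 peaks, although it was only 170 bp wide. Upstream, chr20:13815727-13816008 had a score of 89.6 and 4 peaks at 2.77 kb, centred 52.5 bp from the end of the lncRNA gene LOC110017289. These stronger elements near the gene start therefore stood 2.00 to 3.13 kb from the annotated TSS on either side and not on it.

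Most other TF genes had an element on the TSS itself. Of 1526 other TF genes whose windows lie wholly on a chromosome, 999 (65.5%) had an element over the TSS, and 86.6% had an element within 1 kb. The best score within 1 kb was 19.8 for zfhx4, against a median of 95.6 for the others, and 1237 of them (81.1%) had a higher one. Among the 118 others of at least 50 kb, 58.5% had a covered TSS, and among the 62 others with at least 400 elements per Mb, 74.2% had. Within 2 kb of the TSS, the best score was 65.9 for zfhx4 and 66.1% of the others were higher. Within 5 kb it was 199 and 37.7% were higher, so the low place of zfhx4 held for the immediate surroundings of the annotated TSS and not for the first 5 kb.

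The 46 elements in the gene had a median score of 44.1, against 29.2 in the upstream flank and 25.7 in the downstream flank. A score above the upper quartile of all elements was found in 17 of them (37.0%), against 25.0% of all elements and 28 (23.9%) in the whole window. Single-peak elements made up 9 of the 46 (19.6%), against 12 of 37 (32.4%) upstream and 11 of 34 (32.4%) downstream. The elements inside the gene were thus stronger than those beside it and a smaller share of them came from a single peak.

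Of the 15 elements with scores of at least 100, 10 were in the gene, 4 upstream and 1 downstream. These were 21.7% of the 46 elements in the gene, 10.8% of the 37 upstream and 2.94% of the 34 downstream, against 15.8% of all elements. The 10 in the gene stood 3.13 to 66.6 kb from the TSS, had scores of 116 to 199 and came from 4 to 9 peaks. The element at 50.6 kb, chr20:13868950-13869469, had a score of 179 from 5 peaks, and only 2.66% of all elements of 5 peaks scored higher. The element at 16.4 kb, chr20:13834646-13835435, had a score of 168 from 7 peaks and was the widest of the window at 790 bp. The element at 66.6 kb, chr20:13885039-13885440, had a score of 156 from 9 peaks. That at 59.4 kb, chr20:13877678-13878393, had 123 from 7 peaks and a width of 716 bp. The strong elements were thus spread over most of the gene.

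The 4 elements of 9 peaks had unlike scores. The scores were 298 at 105.8 kb downstream, 199 at 3.13 kb, 156 at 66.6 kb and 118 at 37.2 kb (chr20:13855714-13855961). The median of all elements of 9 peaks was 149, so 3 of the 4 lay above it. Those with scores of 118 to 199 were in the gene. The elements of 8 peaks, at 2.00 and 27.8 kb, had scores of 65.9 and 122 and were in the gene as well.

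The most crowded 10 kb of the window lay near the end of the gene. It held 11 elements from 13877678 to 13887570, 59.4 to 68.8 kb downstream of the TSS, with scores of 14.1 to 156. The most in any 10 kb of the chromosomes was 13. Each gap between an element and the next was counted to the part that holds the element before it. The last gap counted to the gene or the upstream flank thus ran past the end of that part. In the gene the median gap was 880 bp, and 16 of 46 gaps (34.8%) were under 500 bp. Over the window the median gap was 1258.5 bp, against 2382 bp on all chromosomes. In the upstream flank the median gap was 1754 bp and 10.8% were under 500 bp, so the elements there lay further apart than in the gene.

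The gene was not filled evenly. Its longest gap was 7.45 kb, from 20.1 to 27.8 kb downstream of the TSS, between elements with scores of 30.1 and 122. The longest gaps of the window were 10.2 kb in the downstream flank, from 148.3 to 158.9 kb, and 9.29 kb in the upstream flank, between the elements at 83.8 and 74.0 kb. The end of the gene was poor in elements as well. The element nearest the gene end, chr20:13888974-13889158, was centred 3.11 kb before it and had a score of 12.9 from 2 peaks. The RefSeq end was 2.59 kb from its nearest element. Of the other TF genes, 42.7% had an element within 1 kb of the gene end, with a median distance of 1.24 kb.

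In part of its far side, the upstream flank held few but strong elements. Between 90 and 60 kb upstream there were 5 elements, of which 4 had scores above 100, a region picked out after its values had been seen. Its strong elements were chr20:13734451-13735143 at 83.8 kb with a score of 162 from 7 peaks and a width of 693 bp, and chr20:13744435-13744857 at 74.0 kb with 133 from 3 peaks. The others were chr20:13747671-13748280 at 70.7 kb with 147 from 4 peaks, and chr20:13755505-13755786 at 63.0 kb with 152 from 6 peaks. The 60 kb next to the TSS held 27 elements, none of which reached a score of 100, and the highest there was 89.6. The outermost stretch, 100 to 90 kb upstream, held 5 elements with scores up to 36.0. Among them, chr20:13727779-13728494 was one of the widest of the window at 716 bp, with a score of 18.5 from 2 peaks. The highest scores of this flank were thus more than 60 kb from the TSS. The flank as a whole was not rich in strong elements. Scores of at least 100 made up 4 of its 37 elements (10.8%), against 15.8% of all elements. Scores above the upper quartile of all elements made up 16.2%, against 25.0%.

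Some upstream elements had high scores for the number of peaks that they were merged from, and others had low ones. Only 1.55% of all elements of 3 peaks scored higher than the one at 74.0 kb, and 2.54% of those of 4 peaks scored higher than the one at 70.7 kb. The element at 43.1 kb had 86.4 from 2 peaks, with 2.52% higher. The element at 13.7 kb, chr20:13804787-13805024, had 58.8 from a single peak, and 1.11% of the 41464 single-peak elements scored higher. These high-scoring elements were merged from few peaks but were among the strongest of their kind in the list. At the low end, 97.0% of all elements of 7 peaks scored higher than the one at 34.4 kb. For the one at 41.4 kb, from 2 peaks, 97.1% scored higher.

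Set against elements of the same number of peaks, 10 of the 37 upstream elements (27.0%) were in the top 10% by score, against 5 of 46 (10.9%) in the gene and 1 of 34 (2.94%) in the downstream flank. By construction it is 10% of all elements. This measure was not planned before the values were seen, and some of the 10 upstream elements lay in the region picked out above. The places given here are thus a description and not an unbiased ranking. In the upstream 100 kb of the 981 other TF genes with at least 20 elements there, the median share was 10% (quartiles 5% and 15.2%), and 32 (3.26%) had a higher share than zfhx4. In the downstream 100 kb, 857 of 969 other genes (88.4%) had a higher share than zfhx4. In the gene, 48 of 84 other genes with at least 20 elements there (57.1%) had a higher share than zfhx4. Over the whole window, 71 elements (60.7%) were in the upper 50%, against 50% of all elements, and 16 (13.7%) in the top 10%. In that last share, 347 of 1410 other windows with at least 20 elements (24.6%) were higher. The flanks of zfhx4 thus differed from each other in the share in the top 10%, although their numbers of elements were alike. The difference did not extend to the upper 50%, which held a larger share of the downstream than of the upstream elements. Which stages gave the peaks of these elements cannot be read from the list.

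**Figure D3:**
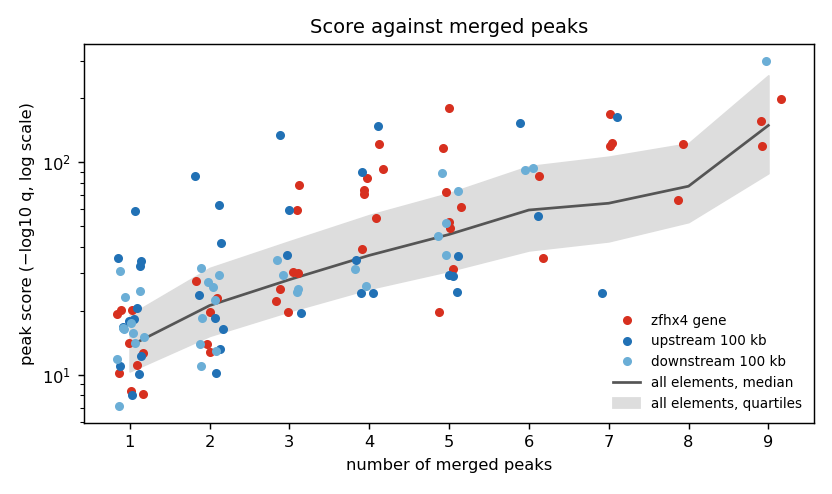
Peak score (−log10 q, log axis) of the elements of the zfhx4 window by number of merged peaks, coloured by gene and flanks, with the median (line) and quartiles (grey band) of all elements of the same number. Points are shifted sideways for clarity. Score and number of peaks increased together, and 71 of the 117 elements lay above the median for their number.

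Over the 117 elements, score and number of peaks had a Spearman's rho of 0.75, against 0.80 over all 149539 elements. For score and width it was 0.47, against 0.43. These correlations are across elements of the same pooled libraries, which are not independent replicates. How the score of a merged element was made is not named in the sources used here. It is not a sum over peaks, since elements of 9 peaks had scores down to 13.2, below the 63 that 9 peaks above the limit of 7 would give.

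The upstream flank was crossed by LOC110017289, a lncRNA gene of 34.0 kb (13781807 to 13815815) that ended 2.83 kb before the TSS. It held 16 of the elements, with a median score of 24.1 and none above 59.3. The element of 147 at 70.7 kb was centred 345.5 bp from an end of another lncRNA gene, LOC111946663 (13745891 to 13747630). No protein-coding gene lay in the upstream flank. The nearest on that side was amer2, whose product takes part in Wnt signalling, and it ended 222 kb upstream.

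The strongest element of the window stood at another gene. The element chr20:13924292-13924542 had a score of 298 from 9 peaks, a score that 2.71% of all elements exceeded, and was centred 16 bp from an end of pex2. The product of pex2 is a peroxisomal membrane protein needed for the import of matrix proteins into peroxisomes. The other end of pex2 had an element of 51.6 from 5 peaks (chr20:13916097-13916644), and 2 weaker elements lay within the gene. The table of RefSeq genes used gives no strand, so the end that is the TSS of pex2 was not told from the other. Without this element the downstream flank held no score of at least 100.

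Of the 34 downstream elements 29 were intergenic, 2 lay in the part of zfhx4 that RefSeq adds, 2 in pex2 and 1 in LOC105356674. The highest after pex2 were at 121 kb with a score of 93.7 from 6 peaks and at 158.9 kb with 88.4 from 5 peaks, and between the gene and pex2 there was one at 91.2 kb with 91.6 from 6 peaks. The weakest of the window, chr20:13982603-13982847, was centred 164.1 kb downstream and had a score of 7.16 from 1 peak, just above the limit of 7. The element nearest the downstream limit, chr20:13988437-13988615, lay in LOC105356674 and had 26.0 from 4 peaks. The first outside that limit, chr20:13993677-13994226, had 45.2 from 2 peaks. On the upstream side the last inside, chr20:13718852-13719138, had 29.5 from 5 peaks, and the first outside, chr20:13718327-13718553, had 10.8 from 2 peaks. The values just inside the limits (26.0 and 29.5) thus lay between those just outside (10.8 and 45.2).

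Few of the elements stood at gene ends. Within 1 kb of an end of a RefSeq gene were 7 of the 117 (5.98%), against 23.4% of all elements on chromosomes. This share depends on how many gene ends a window holds, which was not compared. In the whole list, elements merged from 9 or more peaks made up 33.2% at gene ends, against 6.02% elsewhere. In the window they were 1 of 7 at gene ends and 3 of 110 (2.73%) elsewhere. Away from gene ends, the median score was 29.4 in the window, against 27.9 in the list, and scores of at least 100 made up 11.8%, against 11.6%. The low share of elements of 9 peaks was thus seen also among those away from gene ends, where the scores were close to those of the list. It rested on 3 elements there, and this split was not repeated with elements closer than 500 bp joined.

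The window was then placed among the windows of all TF genes, made in the same way. Windows of neighbouring genes overlap, so they are not independent. With 428 per Mb zfhx4 took place 26 of 1527, and the 1526 others had a median of 242 per Mb (quartiles 185 and 299). The highest densities were those of mycn (527 per Mb), a bHLH factor of cell growth, rere (503), a transcriptional coregulator, ebf3 (494), a neural COE factor, prdm14 (479), known in mouse for germ cells and pluripotency, and meis2 (475), a homeobox cofactor. Just above zfhx4 was IGDB24433 (431), hoxc9 in RefSeq and hoxc8 in the study's names, and just below it LOC101166725 (426), named zic6 in the study's names. Among the zf-C2H2 genes zfhx4 took place 5, with 475 others and a median of 212 per Mb.

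Counted within 50 kb of the TSS, zfhx4 had 54 elements, against a median of 26 for the other TF genes. This was place 7, shared with other genes of the same count, and no other zf-C2H2 gene had more than 52. The genes ahead were rere with 64, mycn and LOC101175428 with 57, LOC101174186 and LOC100049282 with 56 and LOC110015536 with 55. Long genes were also set against long genes alone. Among TF genes of at least 50 kb, the gene body of zfhx4 had 626 elements per Mb and took place 3, against a median of 315 over the 118 others. The median score of its body was 44.1, against 32.9, and 28 of the others were higher.

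In the number of merged peaks zfhx4 stood at the other end of the order. The share of elements from 9 or more peaks was 3.42% in its window, against a median of 14.6% in the others, and 1449 of the 1526 (95.0%) had a higher share. With elements closer than 500 bp joined, 78.7% of the other windows had a higher share. Over all elements on chromosomes this share was 33.2% at gene ends and 6.02% elsewhere, without joining. The windows were not matched for their elements at gene ends. The share of single-peak elements, 27.4%, was near the middle, with 40.2% of the others higher. The 5 densest windows had shares of 6.12% (prdm14) to 16.0% (rere). The median score of 29.5 was exceeded in 1105 windows (72.4%), and the highest score of 298 stood against a median of 414. The strongest element, that at pex2, was 106 kb from the TSS, against a median of 45.7 kb. A longer gene allows a larger distance here, and long genes were not compared alone for it. By number, the 15 elements of zfhx4 with scores of at least 100 stood against a median of 9, and 193 windows (12.6%) had more. These counts were not scaled to the length of a window, and the zfhx4 window held 117 elements against a median of 52. As a share, the 15 were 12.8%, against 15.8% of all elements. The window of zfhx4 thus combined a high density with a median score and a share of elements from 9 or more peaks below those of most TF genes.

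**Figure D4:**
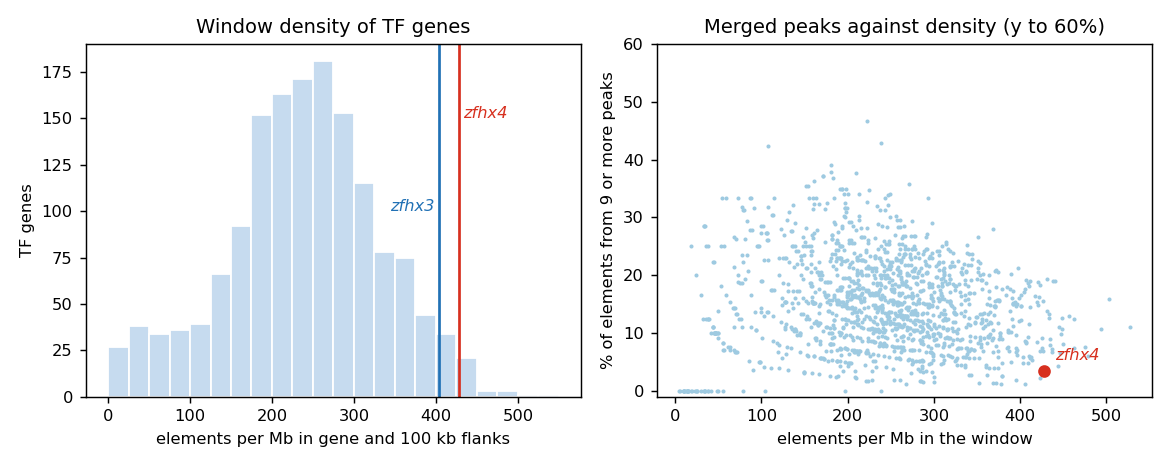
Distribution of the window density (elements per Mb) over TF genes, with zfhx4 in red and zfhx3 in blue (left), and the percent of elements merged from 9 or more peaks against density, 1 point per TF gene (right, axis up to 60%, with 2 windows above it not drawn). The window of zfhx4 stood at 428 per Mb and 3.42%, to the lower right of most others.

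The relatives of zfhx4 were taken from a list of 14 zinc finger homeobox, zinc finger E-box, tshz and adnp genes. Of these, 12 were found, as 13 genes, and adnp and adnp2 were not matched. The windows of the 12 others had 165 to 404 elements per Mb with a median of 252, none denser than that of zfhx4. Their median scores ran from 25.8 to 65.2, and 8 of 12 were higher than that of zfhx4. The TSS was covered in 6 of the 12, and the median of their best scores within 1 kb was 117. The lowest of these was 15.0, that of zfhx3, below the 19.8 of zfhx4.

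The closest in density was zfhx3, the paralog of zfhx4, which in mouse is known for neuronal differentiation. It lies on the reverse strand of chromosome 3 (20695169 to 20807252, 112 kb). The zfhx4 window held 117 elements (428 per Mb) and that of zfhx3 126 (404 per Mb). Elements of 9 or more peaks made up 3.42% at zfhx4 and 4.76% at zfhx3, and single-peak elements 27.4% and 28.6%. In the gene body the density was 626 per Mb at zfhx4 and 535 at zfhx3. The windows of the paralogs were thus alike in density and in the low share of elements of many peaks.

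The paralogs differed in the scores of the gene body and of the flanks. The strongest element of the zfhx3 window was in the gene, 5.74 kb downstream of the TSS (chr3:20801258-20801765), with a score of 396 from 9 peaks. For zfhx4 it was that at an end of pex2. The next was in zfhx4 itself, 3.13 kb downstream of the TSS, with 199 from 9 peaks. Without the element at pex2, the strongest element of both windows thus stood inside the gene. The median score in the gene body was 44.1 at zfhx4 and 26.6 at zfhx3, and in the upstream flank it was 29.2 at zfhx4 and 36.3 at zfhx3. The downstream flank held 34 elements at zfhx4 and 22 at zfhx3. The TSS of zfhx4 had no element over it, and that of zfhx3 had a weak one, with a score of 15.0 from 3 peaks (chr3:20807175-20807295). The paralogs were alike in a weak TSS, since the best score within 1 kb was 19.8 at zfhx4 and 15.0 at zfhx3. Both were below the median of 95.6 for the TF genes other than zfhx4. In the downstream flank the median score was 25.7 at zfhx4 and 41.7 at zfhx3. In the upstream flank, 10 of 37 elements (27.0%) at zfhx4 and 7 of 44 (15.9%) at zfhx3 were in the top 10% for their number of peaks. In the downstream flank this share was 1 of 34 (2.94%) at zfhx4 and 6 of 22 (27.3%) at zfhx3, which are small counts. Over the whole windows it was 13.7% at zfhx4 and 14.3% at zfhx3, so the difference lay in the flanks and not in the total.

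**Figure D5:**
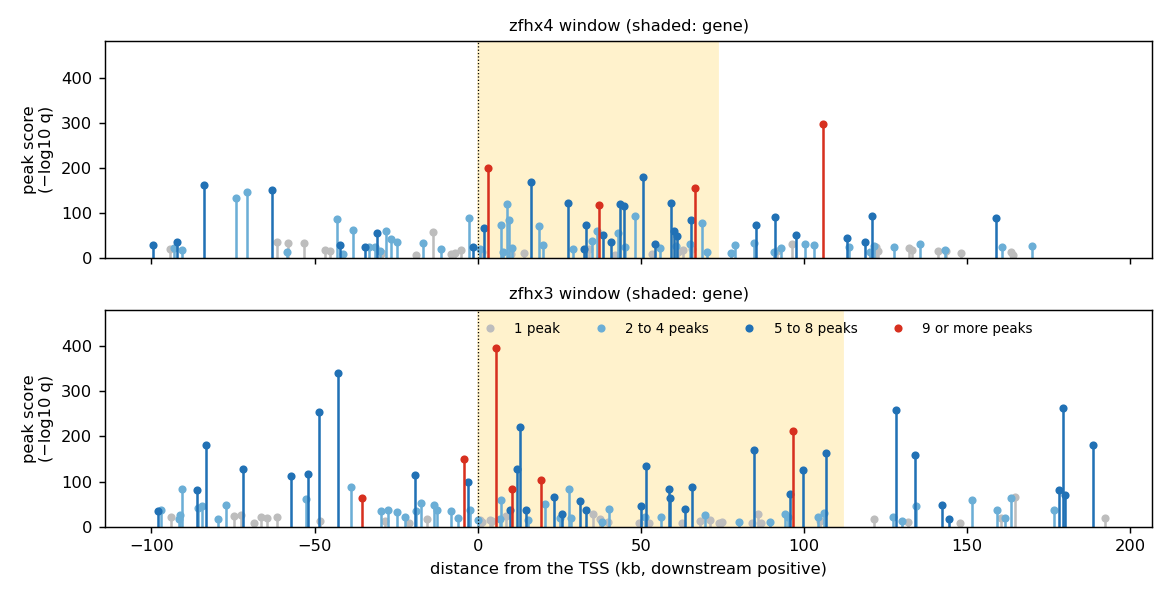
Peak score (−log10 q) of the elements in the windows of zfhx4 (top) and zfhx3 (bottom) by distance from the TSS in kb, with downstream positive and the gene shaded. The strongest element stood at pex2, outside the gene, for zfhx4 (298) and 5.74 kb inside the gene for zfhx3 (396). The next of zfhx4 (199) stood 3.13 kb inside its gene.

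Of the other relatives, zeb1, a repressor known for epithelial to mesenchymal transition, had 391 elements per Mb, with 12.5% from 9 or more peaks. The gene body of zeb1 had 634 per Mb, slightly more than that of zfhx4 (626). The related gene zeb2 had 300 per Mb, with 2.35% from 9 or more peaks, below the share of zfhx4. The tshz genes, which encode teashirt zinc finger factors, had 288 (tshz1), 229 (tshz2) and 275 per Mb (tshz3), with 1.49% to 5.17% from 9 or more peaks. Of the relatives in the homeobox family, zhx3 had 343 per Mb with 19.2% from 9 or more peaks and zhx2 had 169 per Mb with 20.5%. The gene body of zhx3, with 9 elements in 13.0 kb (691 per Mb), was also denser than that of zfhx4. The genes named ZHX1 in the study's list had 165 per Mb with 11.4% (LOC101174681) and 216 per Mb with 17.8% (LOC101172274). The gene named ZFHX2 there (IGDB18646) had 201 per Mb with 25.6%, and homez had 210 per Mb with 27.9%. The 12 relatives thus ran from 1.49% (tshz1) to 27.9% (homez) in this share, with zfhx4, at 3.42%, near the low end of the range.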

How the data were processed

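According to the methods and the submitters' processing notes, the authors trimmed reads (Trimmomatic 0.36), aligned them to the Hd-rR genome (Bowtie2 2.3.4.1), merged the replicates of a stage, called peaks per stage (MACS2 2.1.2), kept a −log q above 7 and merged peaks over stages. Picard, bedtools and deepTools are also named. The deposited score was read as a −log10 q-value and the deposited whole number as the count of merged peaks. The list has no header.

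Elements were placed by midpoint and distances were taken from midpoint to TSS. TF gene positions came from the study's list, symbols and other genes from RefSeq (ASM223467v1). Named elements were those at the TSS and gene end, the 10 highest scores, the 5 with most peaks, the 3 widest, the weakest, and those bounding gaps, the most crowded 10 kb and the window. Elements that stood out by score for their number of peaks, the highest of the downstream flank and those next to the TSS were also named after values were seen. Genes named were neighbours, the listed relatives and the heads of each order. Members and lists were chosen with earlier results of these data known. Counting was tested on simulated data, with 200 of 200 windows right. Alternatives changed the flank, placement, score limit and the joining of elements. Sequences were not analysed here. Python 3.11.15, NumPy 2.4.6, SciPy 1.17.1, pandas 2.3.3 and Matplotlib 3.10.9 were used.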

Additional observations from a re-analysis of the deposited data

How the results depend on the processing

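With flanks of 200 kb the window held 188 elements. With scores of at least 20 only, single-peak elements made up 12.3%. The share over all elements at this limit is not given here, so this value was not set against the list. With elements closer than 500 bp joined, those of 9 or more peaks made up 14.9%, against 19.0% of all joined elements, since peaks were summed, and the gene held 30. Within 25 kb of the TSS there were 24 elements and within 100 kb 93. The share of other TF genes with a stronger element near the TSS was 66.1% within 2 kb and 37.7% within 5 kb, both chosen after seeing the data. By density zfhx4 took place 5 with flanks of 50 kb, 19 with 200 kb, 25 with joined elements and 70 with scores of at least 20. The other values stayed within 1.5 times the reported ones, with 296 (scores of at least 20) to 524 (flanks of 50 kb) elements per Mb and a median score of 28.4 to 41.8. Placement by any overlap changed none of the values of the window. No paired analysis was possible from the list, because it pools all libraries, and for the same reason no replicate could be left out. The paper states that read coverage was submitted as well, which was not used here.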
